A study of Mus musculus with 4 samples.

Results

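Natural killer (NK) cells were taken from single-cell RNA libraries of CD45+ cells of mouse lung and lung tumor, and 674 of 13344 cells (5.05%) met the rule. A cell was kept with at least 200 genes, at most 10% mitochondrial UMIs (unique molecular identifiers, each standing for 1 captured RNA molecule) and at least 2 UMIs summed over Ncr1, Klrb1c, Klre1 and Klra8. Those 4 genes encode NKp46, NK1.1, KLRE1 and Ly49H, receptors of the NK cell surface. Cells with any UMI of Cd3e, Cd3d or Cd3g (T cell receptor complex), Cd79a (B cell receptor), Csf1r or Csf3r (macrophage and neutrophil growth factor receptors) were left out. The cells were thus chosen by the measured UMIs of 10 genes, so the levels of those genes and every gene that sets NK cells apart from other cells are given as a description.

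The mice were C57BL/6, either lacking Rab37 (Rab37 KO) or wild type (WT), and had received LLC cells, a Lewis lung carcinoma line of the same strain, or Matrigel without tumor cells. Live CD45+ cells were sorted at day 14. There was 1 library for each of Rab37 KO tumor, WT tumor, Rab37 KO normal lung (Matrigel) and WT normal lung (Matrigel). The number of mice behind a library, and the part of Rab37 that was deleted, are not given in the sources used here.

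NK cells are innate lymphocytes that kill stressed, infected or transformed cells and secrete interferon gamma and chemokines. They weigh signals from activating receptors such as NKG2D and NKp46 against inhibitory ones, which read MHC class I on the target cell. The inhibitory ones include CD94/NKG2A and some, not all, members of the Ly49 family. Killing runs through perforin and granzymes, which are stored in secretory lysosomes and released toward the target. In the mouse they mature under the T-box factors Eomes and T-bet, from CD27-positive cells to CD11b- and KLRG1-positive ones, and the lung is among the organs richest in them. Rab37 belongs to the Rab small GTPases, switches that steer vesicles in traffic and exocytosis.

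The rule found 47 NK cells in Rab37 KO tumor and 24 in WT tumor, against 268 in Rab37 KO normal lung and 335 in WT normal lung. Their summed depth was 232409 UMIs in Rab37 KO tumor and 119481 UMIs in WT tumor, against 1263036 UMIs in Rab37 KO normal lung and 1299418 UMIs in WT normal lung. An NK cell held a median of 4392 UMIs in Rab37 KO tumor and 2812.5 UMIs in WT tumor, against 4226.5 UMIs in Rab37 KO normal lung and 3589 UMIs in WT normal lung. Levels are CPM (counts scaled to a common total of UMIs) of the summed NK cells of a library, and 1 UMI was worth 4.30 CPM in Rab37 KO tumor and 8.37 CPM in WT tumor, against 0.792 CPM in Rab37 KO normal lung and 0.770 CPM in WT normal lung. The WT tumor values are therefore the least precise.

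Since each group is 1 library, differences have no replicate check and no test was run. Values in parentheses after a level, a ratio or a share are exact 95% intervals that cover counting error only. A gene counted as measured when the NK cells of the compared libraries held at least 10 of its UMIs together, and was called higher or lower when its ratio reached 1.5-fold and the interval of the ratio left out 1. The tumor libraries also differed by sex: 27 NK cells of Rab37 KO tumor were called male and 0 female, while 18 of WT tumor were called female and 0 male. Both normal libraries held cells of both sexes, with 122 female and 73 male NK cells in Rab37 KO and 148 female and 69 male NK cells in WT. Genotype and sex cannot be told apart in the tumor. Each comparison of tumor with normal lung also sets cells called a single sex beside cells of both sexes. Same-sex cells were compared as an alternative, and its gene ratios are not listed for tumor against normal lung. The header of the matrices names software version 3.1.0 for both tumor libraries and 3.0.1 for both normal libraries, so tissue and version cannot be told apart either.

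A few NK cells stood apart. In WT tumor the deepest cell held 29620 UMIs, 24.8% of all NK UMIs of that library, and 27 of its 29 Mki67 and Top2a UMIs. In each library 3 NK cells held at least 10 UMIs of the MHC class II genes H2-Aa, H2-Ab1, H2-Eb1 and Cd74, or at least 1% of their UMIs from neutrophil and mononuclear phagocyte markers or from hemoglobin genes. NK cells with any UMI of those MHC class II genes numbered 8 in Rab37 KO tumor and 5 in WT tumor, against 43 in Rab37 KO normal lung and 59 in WT normal lung. In WT tumor 1 cell held 584 of 590 UMIs of the mononuclear phagocyte markers. In Rab37 KO tumor 1 cell held 2335 of 2356 hemoglobin UMIs. The 12 cells past these limits and the deepest cell of each library are called the set-apart cells below, and 660 cells remained without the 12 and the deepest cells that were not among them. This split was chosen after the data were seen. Of 15 barcodes shared between any pair of libraries, 1 belonged to an NK cell.

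The label was checked against markers that the rule did not use. The sum of 11 further NK genes (Klrd1, Klrk1, Eomes, Prf1, Gzma, Nkg7, Klri2, Klra4, Txk, Cma1 and Khdc1a) was 13304 CPM in Rab37 KO tumor and 14186 CPM in WT tumor, against 16944 CPM in Rab37 KO normal lung and 19693 CPM in WT normal lung. In the other cells of the same libraries this sum lay between 152 and 471 CPM. All 11 were detected in the NK cells of every library. B cell markers outside the rule summed to at most 2.38 CPM, and 7 further T cell genes (Trac, Cd4, Cd8a, Cd8b1, Cd5, Cd6 and Cd28) to between 100.4 and 211 CPM. In Rab37 KO tumor the T cell sum was higher in NK cells (211 CPM, with UMIs in 22 of 47 cells and 5 of the 7 genes at 0) than in the other cells (61.1 CPM), and in the remaining libraries it was lower in NK cells. Its part in the results was not tested. The 8 mononuclear phagocyte markers summed to 542 CPM in Rab37 KO tumor and 4938 CPM in WT tumor, against 520.2 CPM in Rab37 KO normal lung and 185 CPM in WT normal lung, most of the WT tumor value coming from the single cell described above. The 8 neutrophil markers summed to 297 CPM in Rab37 KO tumor and 142 CPM in WT tumor, against 64.1 CPM in Rab37 KO normal lung and 28.5 CPM in WT normal lung. The 7 type 1 innate lymphoid cell genes summed to 103 CPM in Rab37 KO tumor and 285 CPM in WT tumor. In normal lung they summed to 173 CPM in Rab37 KO and 149 CPM in WT. NK cells with a UMI of Cd200r1, Il7r, Tmem176a or Tmem176b numbered 4 in Rab37 KO tumor and 5 in WT tumor. In normal lung such cells numbered 37 in Rab37 KO and 29 in WT. Calls without those cells are given below, and several moved.

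Cells at the edge of the rule showed less of the NK profile. The 40 cells with 1 marker UMI that met every other condition had 884 CPM of Gzma, 358 CPM of Nkg7 and 2250 CPM of the macrophage lysozyme Lyz2. The 24 cells with exactly 2 marker UMIs had 5100 CPM of Gzma, 1799 CPM of Nkg7 and 3091 CPM of Lyz2. The 650 cells with 3 or more had 10655 CPM of Gzma, 2827 CPM of Nkg7 and 253 CPM of Lyz2.

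The 25 genes that stood out most in NK cells were led by Ncr1, 117.7 to 232 times as high as in all other cells of the same library. Among the 25 were the killing genes Gzma, Gzmb and Prf1, the granule membrane gene Nkg7, and Serpinb9 and Serpinb6b, inhibitors of serine proteases that shield the cell's own cytoplasm from granule enzymes. Also among them were the chemokines Ccl5 and Xcl1, the T-box factor Eomes, the integrin subunit Itga2 (CD49b), the NKG2 receptors Klrk1, Klrc1 and Klrc2, and the Ly49 genes Klra3, Klra4, Klra8 and Klra9. Ly49 genes are near copies of each other, so the counts of a single one are uncertain.

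The promoters of these genes were searched for the core letters of a pair of factor families known in NK cells. The RUNX letters TGTGGTT, on either strand, occurred within the 250 bases upstream of the start in 7 of 26 windows of the 22 genes with a promoter entry (26.9%), against 4.40% of 32851 such windows of all genes. The T-box letters TCACACC occurred in 2 of the 26 windows, those of Nkg7 and Xcl1, against 3.33% of all windows. Genes with more than 1 start gave more than 1 window, and the 2 motifs share no position in the windows shown. The 7 windows with RUNX letters belong to 6 genes, since both Ncr1 windows overlap and hold the same site. Ncr1 and Klre1 are among those genes and were used by the rule. The 25 genes were chosen from these data, so the shares beside those of all windows are a description. The windows of Gzma, Gzmb, Klrk1 and Xcl1 are shown because these genes are described in the results that follow, and that of Ncr1 because it led the 25. Sequences are from RefSeq on GRCm38.p6, written 5′ to 3′ on the gene's strand and ending 1 base before the start, and capitals mark the motif letters on either strand. A match describes letters only.
Gzma (chr13:113100982-113101231, minus strand): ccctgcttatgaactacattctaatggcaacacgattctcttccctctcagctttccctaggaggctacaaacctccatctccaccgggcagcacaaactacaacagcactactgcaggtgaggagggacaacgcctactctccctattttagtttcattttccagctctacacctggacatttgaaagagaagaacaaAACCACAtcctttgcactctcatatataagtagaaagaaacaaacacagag
Gzmb (chr14:56262335-56262584, minus strand): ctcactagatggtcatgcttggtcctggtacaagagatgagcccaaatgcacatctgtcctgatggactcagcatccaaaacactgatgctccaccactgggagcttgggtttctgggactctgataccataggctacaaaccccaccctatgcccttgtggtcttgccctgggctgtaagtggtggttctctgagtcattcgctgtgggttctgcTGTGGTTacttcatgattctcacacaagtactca
Ncr1 (chr7:4337465-4337714, plus strand): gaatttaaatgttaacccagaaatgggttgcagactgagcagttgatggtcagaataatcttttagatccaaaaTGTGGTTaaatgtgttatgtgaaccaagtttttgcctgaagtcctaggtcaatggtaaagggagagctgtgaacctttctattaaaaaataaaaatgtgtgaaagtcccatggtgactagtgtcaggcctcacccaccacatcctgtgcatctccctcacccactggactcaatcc
Klrk1 (chr6:129623865-129624114, minus strand): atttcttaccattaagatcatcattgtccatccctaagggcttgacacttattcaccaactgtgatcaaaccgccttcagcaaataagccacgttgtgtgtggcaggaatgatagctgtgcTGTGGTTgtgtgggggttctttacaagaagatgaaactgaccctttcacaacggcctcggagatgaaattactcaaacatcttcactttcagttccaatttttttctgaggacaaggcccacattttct
Xcl1 (chr1:164935523-164935772, minus strand): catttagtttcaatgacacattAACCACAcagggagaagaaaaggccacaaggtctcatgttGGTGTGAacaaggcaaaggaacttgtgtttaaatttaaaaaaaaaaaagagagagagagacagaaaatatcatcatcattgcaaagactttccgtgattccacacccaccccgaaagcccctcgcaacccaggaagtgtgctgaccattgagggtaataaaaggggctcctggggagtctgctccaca

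The RUNX letters began at position -51 in Gzma (as the reverse, AACCACA), -34 in Gzmb, -176 in Ncr1 and -129 in Klrk1, counted back from the start. In Xcl1 both motifs were present as their reverse, AACCACA and GGTGTGA.

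Rab37 (chr11:115091431-115162236, plus strand, GRCm38) was read first as a check of the genotype labels. It had 1 UMI in NK cells of Rab37 KO tumor and 6 UMIs in WT tumor, against 3 UMIs in Rab37 KO normal lung and 76 UMIs in WT normal lung. As levels these were 4.3 CPM in Rab37 KO tumor and 50.2 CPM in WT tumor, against 2.38 CPM in Rab37 KO normal lung and 58.5 CPM in WT normal lung. Rab37 KO NK cells lay below WT NK cells in both tissues, with a Rab37 KO over WT ratio of 0.0406 (0.00819 to 0.123) in normal lung. In tumor the ratio was 0.0857 (0.00186 to 0.706), from 1 UMI against 6. In WT normal lung the NK level was 58.5 CPM, against 6.76 CPM in all other cells, 11.8 CPM in Ccl5-expressing CD8 T cells and 2.91 CPM in B cells. The NK over CD8 T ratio there was 4.96 (2.90 to 8.96). At an even depth of 1500 UMIs, Rab37 was found in 33 of 335 NK cells of WT normal lung (9.85%, 6.88% to 13.6%), against 3 of 680 B cells of that library. It was found in 1 of 267 NK cells of Rab37 KO normal lung, against 0 of 616 B cells.

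NK cells made up a smaller share of CD45+ cells in tumor than in normal lung. They were 1.72% of 2729 cells (1.27% to 2.28%) in Rab37 KO tumor and 3.71% of 647 cells (2.39% to 5.47%) in WT tumor, against 5.67% of 4726 cells (5.03% to 6.37%) in Rab37 KO normal lung and 6.39% of 5242 cells (5.74% to 7.09%) in WT normal lung. The counting interval of Rab37 KO tumor lay below the other 3, that of WT tumor overlapped Rab37 KO normal lung and not WT normal lung, and the 2 normal intervals overlapped. Cells with 2 or more marker UMIs before the exclusions numbered 100 in Rab37 KO tumor and 39 in WT tumor, against 412 in Rab37 KO normal lung and 532 in WT normal lung. Of these, 33 in Rab37 KO tumor and 9 in WT tumor, against 31 in Rab37 KO normal lung and 39 in WT normal lung, held a Csf1r or Csf3r UMI. As shares of all cells, the cells before the exclusions were 3.66% in Rab37 KO tumor and 6.03% in WT tumor, against 8.72% in Rab37 KO normal lung and 10.1% in WT normal lung. A share also moves with the other cells of the sort: the neutrophil markers summed to 48427 CPM in the other cells of Rab37 KO tumor and 25101 CPM in those of WT tumor, against 9283 CPM in those of Rab37 KO normal lung and 5218 CPM in those of WT normal lung. Their part in the NK share was not tested.

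**Figure D1:**
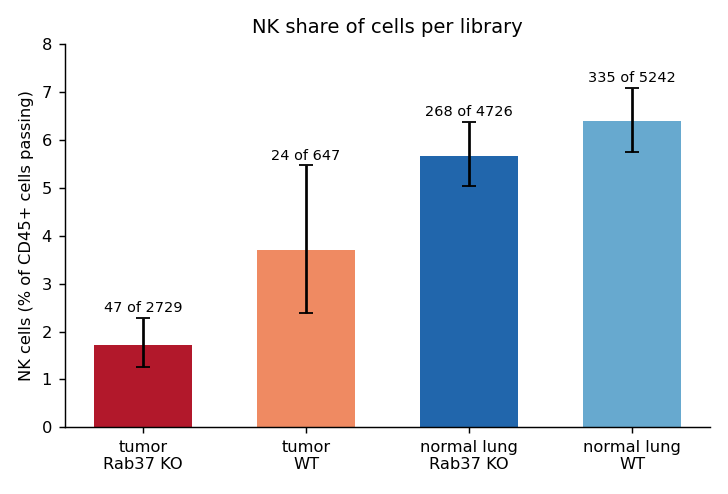
NK cells as a percentage of the CD45+ cells passing the filters in each library, with exact 95% binomial intervals as error bars and cell counts above. The Rab37 KO tumor share of 1.72% is the lowest and the WT normal lung share of 6.39% the highest.

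Gzma, which encodes the protease granzyme A of the killing granules, was found in most NK cells of every library. It was found in 89.4% of NK cells of Rab37 KO tumor and 87.5% of WT tumor, against 88.8% of Rab37 KO normal lung and 92.2% of WT normal lung, each cell thinned to 1500 UMIs. Without thinning these shares were 91.5% in Rab37 KO tumor and 87.5% in WT tumor, against 89.9% in Rab37 KO normal lung and 93.7% in WT normal lung. B cells served as background. Among them Gzma was found in 0 of 64 cells of Rab37 KO tumor and 0 of 48 cells of WT tumor. In normal lung it was found in 5 of 616 B cells of Rab37 KO (0.812%) and 2 of 680 B cells of WT. Gzma levels were 7508 CPM in Rab37 KO tumor and 9466 CPM in WT tumor, against 9838 CPM in Rab37 KO normal lung and 11734 CPM in WT normal lung, and the ratio of tumor to normal lung reached 1.5-fold in neither genotype.

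Heat shock genes were lower in tumor than in normal lung NK cells of both genotypes. In Rab37 KO, 9 of 15 measured heat shock genes were called lower in tumor and 0 higher, where 3.19% of all 8098 measured genes were called lower and 4.98% higher (8.16% either way). In WT, 9 of 14 were called lower and 0 higher, where 3.22% of 7897 genes were called lower and 6.41% higher (9.62% either way). The median log2 ratio of the list was -0.91 in Rab37 KO and -1.21 in WT, beside a median of 0 over all measured genes in both. The number called lower ranged from 6 to 12 in Rab37 KO and from 7 to 11 in WT over all other ways of processing that were tried.

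Hspa1b, an inducible HSP70 chaperone, had 555 CPM in Rab37 KO tumor and 377 CPM in WT tumor, against 1416 CPM in Rab37 KO normal lung and 1789 CPM in WT normal lung. Both tumor levels were below both normal levels, with tumor over normal ratios of 0.392 (0.325 to 0.469) in Rab37 KO and 0.21 (0.153 to 0.283) in WT. Hspa1a, its neighbour and near copy, had 895 CPM in Rab37 KO tumor and 218 CPM in WT tumor, against 1256 CPM in Rab37 KO normal lung and 1531 CPM in WT normal lung; only the WT ratio was called, at 0.142 (0.0926 to 0.209). Hspe1, the mitochondrial HSP10, was lower in tumor at 0.453 (0.358 to 0.567) in Rab37 KO and 0.405 (0.303 to 0.531) in WT. Hspd1, its HSP60 partner, was called lower in Rab37 KO only, at 0.382 (0.254 to 0.553), while the WT ratio was 1.3 (0.968 to 1.72). The HSP40 co-chaperones Dnaja1 and Dnajb1 were lower in both genotypes. Dnaja1 gave 0.515 (0.418 to 0.629) in Rab37 KO and 0.479 (0.356 to 0.632) in WT, and Dnajb1 gave 0.491 (0.351 to 0.672) in Rab37 KO and 0.372 (0.229 to 0.574) in WT. Hsph1, an HSP110 exchange factor, gave 0.534 (0.364 to 0.761) in Rab37 KO and 0.246 (0.105 to 0.49) in WT. The constitutive HSC70 gene Hspa8 was not called, at 0.96 (0.871 to 1.06) in Rab37 KO and 0.846 (0.735 to 0.969) in WT. Hspb1 (HSP27), with 2 UMIs in Rab37 KO tumor and 0 in WT tumor, was counted among the lower genes of Rab37 KO alone.

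**Figure D2:**
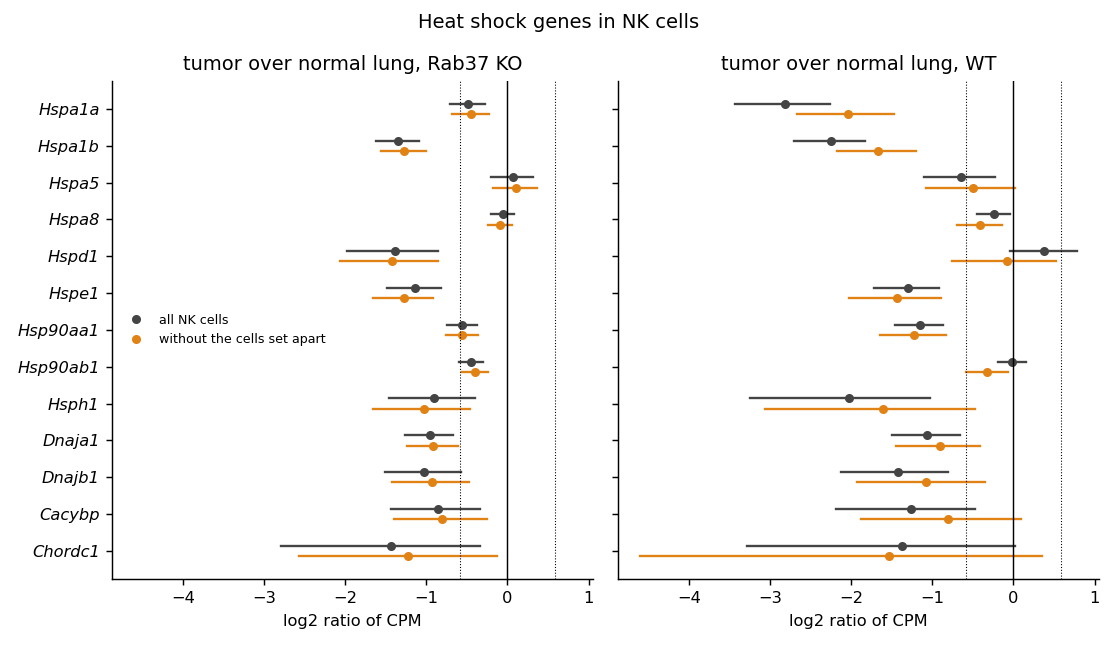
Log2 ratio of tumor to normal lung for 13 of the 15 heat shock genes in Rab37 KO (left) and WT (right) NK cells, with 95% counting intervals as lines, for all NK cells and without the set-apart cells; dotted lines mark 1.5-fold. Most points lie left of 0, and the constitutive Hspa8 lies close to it.

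Hspa1b was lower in tumor outside NK cells too. Over all other cells it had 302 CPM in Rab37 KO tumor and 368 CPM in WT tumor, against 1779.7 CPM in Rab37 KO normal lung and 1976 CPM in WT normal lung. Cell by cell, at 1500 UMIs, the median number of heat shock UMIs was 13 in Rab37 KO tumor and 8 in WT tumor, against 15 in each normal library. The upper quartile differed more than the median: it was 16 UMIs in Rab37 KO tumor and 10.25 UMIs in WT tumor, against 25 UMIs in Rab37 KO normal lung and 29 UMIs in WT normal lung. The highest cell had 27 UMIs in Rab37 KO tumor and 28 UMIs in WT tumor, against 88 UMIs in Rab37 KO normal lung and 111 UMIs in WT normal lung. Without the set-apart cells 9 of 15 genes were still called lower in Rab37 KO, and 7 of 14 in WT, where the median became -0.99.

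**Figure D3:**
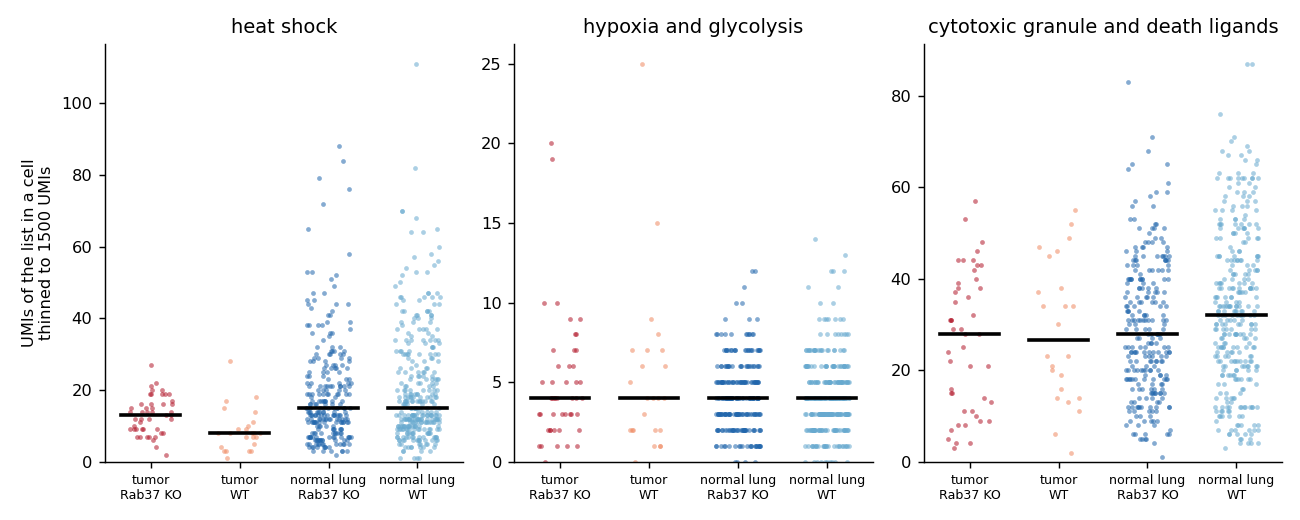
UMIs of the heat shock, hypoxia and glycolysis, and cytotoxic lists in each NK cell after thinning to 1500 UMIs, 1 point per cell, bars at the medians. Normal lung holds a tail of cells with many heat shock UMIs (up to 111) that the tumor libraries lack (up to 28), while the glycolysis medians are 4 UMIs in every library.

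Among the 19 cytotoxic granule and death ligand genes, of which 17 were measured, 4 were called higher and 3 lower in tumor in Rab37 KO, and 3 higher and 6 lower in WT. Without the set-apart cells 2 were higher and 1 lower of 16 in Rab37 KO, and 2 higher and 2 lower of 17 in WT. Called either way were 41.2% of the list in Rab37 KO and 52.9% in WT, beside 8.16% of all genes in Rab37 KO and 9.62% in WT. With those cells left out the shares were 18.8% of the list in Rab37 KO and 23.5% in WT, beside 6.53% of all genes in Rab37 KO and 6.02% in WT. The median log2 ratio of the list was -0.06 in Rab37 KO and -0.31 in WT. Prf1, which encodes the pore-forming perforin, had 624 CPM in Rab37 KO tumor and 628 CPM in WT tumor, against 942 CPM in Rab37 KO normal lung and 975 CPM in WT normal lung. Its tumor over normal ratio was 0.662 (0.553 to 0.787) in Rab37 KO and 0.644 (0.503 to 0.813) in WT, both called lower. Neither call held without the set-apart cells, where the ratio was 0.704 (0.585 to 0.841) in Rab37 KO and 1.03 (0.799 to 1.31) in WT. Serpinb9, the granzyme B inhibitor, had 336 CPM in Rab37 KO tumor and 359.9 CPM in WT tumor, against 721 CPM in Rab37 KO normal lung and 591 CPM in WT normal lung. In Rab37 KO it was lower in tumor both with all cells (ratio 0.465, interval 0.364 to 0.587) and without the set-apart cells (ratio 0.515, interval 0.402 to 0.651), while the WT ratio was 0.609 (0.437 to 0.828) and lost its call without them (ratio 0.71, interval 0.472 to 1.03).

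Gzmb, which encodes granzyme B, had 848 CPM in Rab37 KO tumor and 954 CPM in WT tumor, against 1196 CPM in Rab37 KO normal lung and 1481 CPM in WT normal lung, and its WT ratio of 0.644 (0.529 to 0.779) was called lower, though without the set-apart cells it was 0.901 (0.723 to 1.11). Nkg7 had 2048 CPM in Rab37 KO tumor and 1489.8 CPM in WT tumor, against 2677 CPM in Rab37 KO normal lung and 3163 CPM in WT normal lung; the WT ratio was 0.471 (0.403 to 0.547), against 0.696 (0.588 to 0.818) without those cells. Cst7, which encodes cystatin F, an inhibitor of the proteases that activate granzymes, had 112 CPM in Rab37 KO tumor and 25.1 CPM in WT tumor, against 124 CPM in Rab37 KO normal lung and 156 CPM in WT normal lung. It was called lower in WT tumor, at 0.161 (0.0329 to 0.476), from 3 UMIs, and stayed so without the set-apart cells. Gzmc, higher in tumor in both genotypes, came from 1 cell in each tumor library, which held 9 of 9 UMIs in Rab37 KO and 12 of 12 in WT. Per cell at 1500 UMIs the median of the whole list was 28 UMIs in Rab37 KO tumor and 26.5 UMIs in WT tumor, against 28 UMIs in Rab37 KO normal lung and 32 UMIs in WT normal lung.

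**Figure D4:**
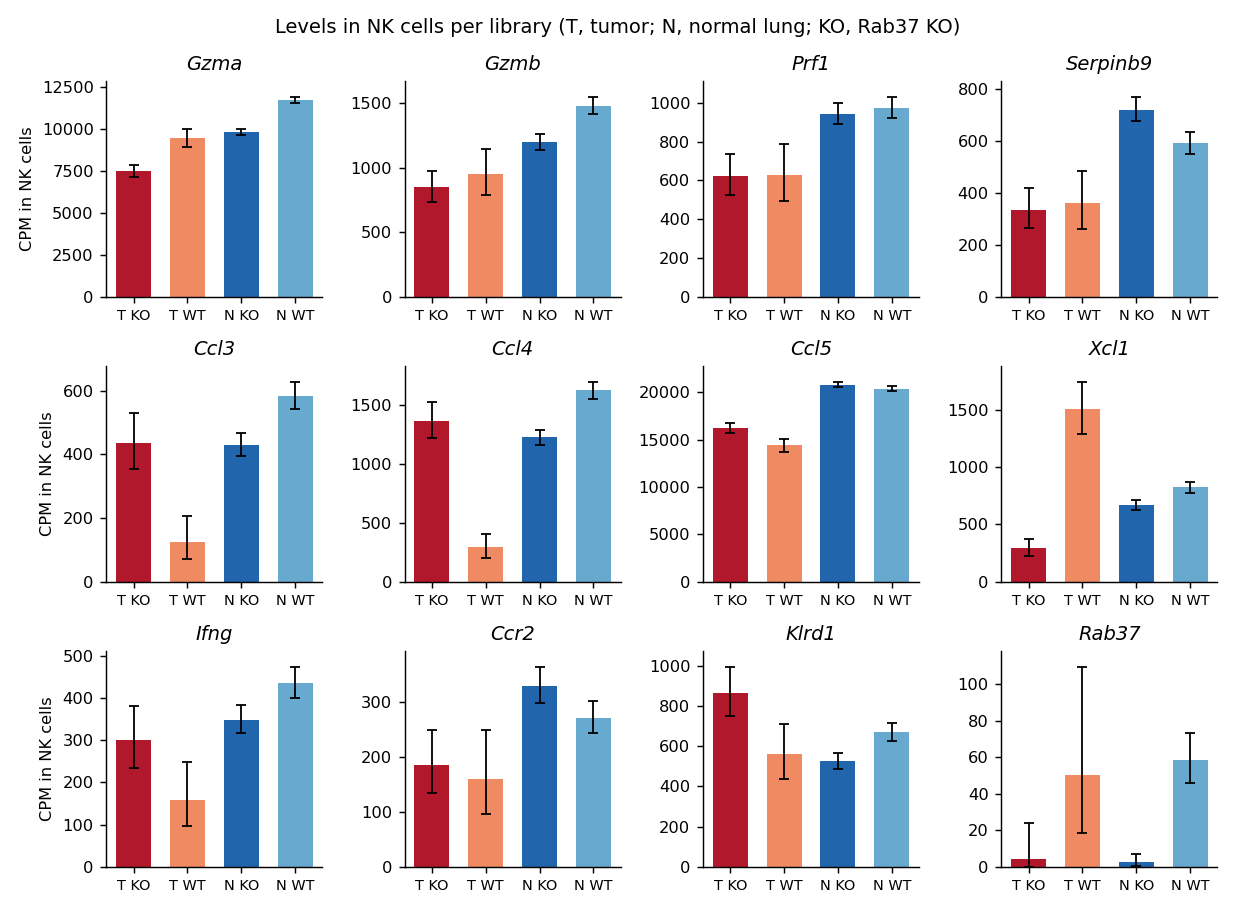
Levels in CPM of 11 effector, chemokine and receptor genes and Rab37 in the summed NK cells of each library, bars from 0 with exact 95% Poisson intervals. Ccr2 is lower in both tumor libraries than in normal lung, Ccl3 and Ccl4 are low in WT tumor alone, and Rab37 is near 0 in both Rab37 KO libraries.

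Calls among chemokines and cytokines differed between the genotypes. Of 12 measured genes in Rab37 KO, 2 were called higher and 1 lower in tumor, and of 13 in WT, 4 were called higher and 3 lower. These were 25% of the list in Rab37 KO and 53.8% in WT, beside 8.16% of all genes in Rab37 KO and 9.62% in WT. In Rab37 KO the higher genes were Ccl9 and Ltb and the lower gene Xcl1. In WT Ccl9, Xcl1, Tnf and Csf2 were higher and Ccl3, Ccl4 and Ifng lower. The WT share counts Xcl1, which rested on few cells as given below. The UMIs behind Ccl9, Tnf and Csf2, and the levels of these genes in the other cells, are not given here. List counts without the set-apart cells are not given here. Ccl4 (MIP-1 beta), an inflammatory chemokine, had 1368 CPM in Rab37 KO tumor and 293 CPM in WT tumor, against 1226 CPM in Rab37 KO normal lung and 1626 CPM in WT normal lung. The tumor over normal ratio was 1.12 (0.986 to 1.26) in Rab37 KO and 0.18 (0.125 to 0.251) in WT, where the tumor library was the lowest of the 4. Ccl3 (MIP-1 alpha) had 435 CPM in Rab37 KO tumor and 126 CPM in WT tumor, against 429 CPM in Rab37 KO normal lung and 583 CPM in WT normal lung, with 1.01 (0.811 to 1.25) in Rab37 KO and 0.215 (0.12 to 0.357) in WT. Both WT calls held without the set-apart cells, at 0.283 (0.193 to 0.401) for Ccl4 and 0.321 (0.17 to 0.552) for Ccl3. In the other cells of the libraries Ccl4 stood at 3065 CPM in Rab37 KO tumor and 709 CPM in WT tumor, against 642 CPM in Rab37 KO normal lung and 563 CPM in WT normal lung. In Rab37 KO tumor 1 NK cell held 119 of 318 Ccl4 UMIs.

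Ifng, which encodes interferon gamma, had 301 CPM in Rab37 KO tumor and 159 CPM in WT tumor, against 349 CPM in Rab37 KO normal lung and 436 CPM in WT normal lung, and was called lower in WT tumor at 0.365 (0.218 to 0.575), from 19 UMIs. It was found in 29.8% of thinned NK cells of Rab37 KO tumor and 12.5% of WT tumor, against 24.7% of Rab37 KO normal lung and 28.1% of WT normal lung, and in at most 1 B cell of any library. Ccl5 (RANTES) had 16208 CPM in Rab37 KO tumor and 14379 CPM in WT tumor, against 20813 CPM in Rab37 KO normal lung and 20379 CPM in WT normal lung, and reached 1.5-fold in neither genotype. Xcl1, the lymphotactin that draws XCR1-positive dendritic cells, went opposite ways. It had 293 CPM in Rab37 KO tumor and 1507 CPM in WT tumor, against 669.8 CPM in Rab37 KO normal lung and 824 CPM in WT normal lung, with a tumor over normal ratio of 0.437 (0.336 to 0.56) in Rab37 KO and 1.83 (1.55 to 2.14) in WT. The WT value rested on 2 cells that held 171 of 180 UMIs, and 158 of those were in 1 cell. Without the largest cell of each library the WT log2 ratio was -1.95. The transcript was found in 21.3% (10.7% to 35.7%) of thinned NK cells in Rab37 KO tumor and 16.7% (4.74% to 37.4%) in WT tumor, against 30.7% (25.2% to 36.6%) in Rab37 KO normal lung and 39.4% (34.1% to 44.9%) in WT normal lung, with 0 B cells in any library. The tumor and normal intervals overlapped in both genotypes.

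Ccr2, the receptor for monocyte chemoattractants, was lower in tumor NK cells of both genotypes. Of the trafficking and adhesion genes, 4 of 21 were called lower and 1 higher in Rab37 KO, and 5 of 20 lower and 0 higher in WT, where 3.19% of all genes were lower in Rab37 KO and 3.22% in WT. Leaving out the set-apart cells, 3 were lower and 0 higher in Rab37 KO, and 3 lower and 3 higher in WT. Ccr2 had 185 CPM in Rab37 KO tumor and 159 CPM in WT tumor, against 329 CPM in Rab37 KO normal lung and 271 CPM in WT normal lung. The tumor over normal ratio was 0.562 (0.40 to 0.77) in Rab37 KO and 0.587 (0.349 to 0.931) in WT, both called lower also without the set-apart cells, at 0.622 (0.442 to 0.856) in Rab37 KO and 0.378 (0.151 to 0.787) in WT. Both tumor levels lay below both normal levels. Among the other lower genes were Cxcr4 and Cxcr6 in Rab37 KO and Itgal, Cd44 and Selplg in WT. The gene called higher was Itgam (CD11b), at 1.52 (1.1 to 2.07) in Rab37 KO, and this call was lost without the set-apart cells (ratio 1.28, interval 0.883 to 1.8).

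Receptors that read target cells gave mixed counts. Of 23 measured activating receptors and adaptors, 3 were called higher and 3 lower in Rab37 KO tumor, and 2 higher and 6 lower in WT tumor. These were 26.1% of the list in Rab37 KO and 34.8% in WT, beside 8.16% of all genes in Rab37 KO and 9.62% in WT. Without the set-apart cells the counts were 2 higher and 0 lower in Rab37 KO (8.70%) and 1 higher and 0 lower in WT (4.35%), near the 6.53% of all genes in Rab37 KO and 6.02% in WT. Klrk1 (NKG2D) had 478 CPM in Rab37 KO tumor and 410.1 CPM in WT tumor, against 688 CPM in Rab37 KO normal lung and 710.3 CPM in WT normal lung, called lower in WT at 0.577 (0.424 to 0.77) and not without the set-apart cells (ratio 0.819, interval 0.581 to 1.12). Of the inhibitory receptors, 1 of 17 was higher and 1 lower in Rab37 KO tumor, and 0 of 16 higher and 4 lower in WT tumor. The Rab37 KO share, 11.8%, was near that of all genes, and the WT share was 25% with all cells and 13.3% (2 of 15 genes) without the set-apart cells. Klrd1 (CD94), the partner chain of the NKG2A and NKG2C receptors, had 865 CPM in Rab37 KO tumor and 561 CPM in WT tumor, against 524 CPM in Rab37 KO normal lung and 672 CPM in WT normal lung. It was called higher in Rab37 KO tumor, at 1.65 (1.4 to 1.94) with all cells and 1.68 (1.42 to 1.98) without the set-apart cells. Klra7 (Ly49G) had 323 CPM in Rab37 KO tumor and 75.3 CPM in WT tumor, against 307 CPM in Rab37 KO normal lung and 346 CPM in WT normal lung, and was called lower in WT tumor at 0.218 (0.099 to 0.418), from 9 UMIs.

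Immediate early and activation genes were called higher in 8 of 26 and lower in 0 in Rab37 KO tumor, and higher in 4 and lower in 7 of 26 in WT tumor. Without the set-apart cells the counts were 7 higher and 0 lower in Rab37 KO, and 3 higher and 3 lower in WT. Of all genes 4.98% were higher and 3.19% lower in Rab37 KO, and 6.41% higher and 3.22% lower in WT. Egr1, an early growth response factor, was higher in tumor in both genotypes, with 125 CPM in Rab37 KO tumor and 184 CPM in WT tumor, against 40.4 CPM in Rab37 KO normal lung and 53.9 CPM in WT normal lung. The ratios were 3.09 (1.89 to 4.97) in Rab37 KO and 3.42 (2.02 to 5.59) in WT, and both held without the set-apart cells. Egr1 stood far higher in the other cells of Rab37 KO tumor (1245 CPM) and WT tumor (458 CPM). The part of free RNA in the NK value was not tested. Fosb, an AP-1 subunit, had 241 CPM in Rab37 KO tumor and 184 CPM in WT tumor, against 108 CPM in Rab37 KO normal lung and 87 CPM in WT normal lung, with 2.24 (1.61 to 3.08) in Rab37 KO and 2.12 (1.28 to 3.36) in WT; the WT call was lost without the set-apart cells (ratio 1.2, interval 0.47 to 2.55). Nfkbid, an atypical inhibitor of NF-kappa B, gave 2.98 (1.81 to 4.82) in Rab37 KO and 1.02 (0.20 to 3.26) in WT. Klf6, a zinc finger factor, had 676 CPM in Rab37 KO tumor and 251 CPM in WT tumor, against 595 CPM in Rab37 KO normal lung and 587 CPM in WT normal lung, and was called lower in WT tumor, at 0.428 (0.286 to 0.616). The median of the list per NK cell at 1500 UMIs was 22 UMIs in Rab37 KO tumor and 14 UMIs in WT tumor, against 17 UMIs in each normal library.

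Hypoxia and glycolysis genes were called higher in 14 of 26 and lower in 0 in Rab37 KO tumor, and higher in 11 of 23 and lower in 0 in WT tumor. The list depended on the set-apart cells: without them 7 of 22 were higher in Rab37 KO, and in WT 1 of 21 was higher and 2 lower. Called either way were 53.8% of the list in Rab37 KO and 47.8% in WT, beside 8.16% of all genes in Rab37 KO and 9.62% in WT. Without those cells the shares were 31.8% in Rab37 KO and 14.3% in WT, beside 6.53% of all genes in Rab37 KO and 6.02% in WT. Slc2a1 (glucose transporter GLUT1) had 116 CPM in Rab37 KO tumor and 67 CPM in WT tumor, against 34 CPM in Rab37 KO normal lung and 26.9 CPM in WT normal lung, and kept its call in Rab37 KO, at 3.41 (2.03 to 5.65) with all cells and 2.36 (1.24 to 4.3) without those cells. Tpi1 (triosephosphate isomerase) gave 3.25 (2.38 to 4.41) in Rab37 KO and 2.49 (1.73 to 3.54) without the set-apart cells, while WT gave 2.15 (1.39 to 3.21) and 0.966 (0.381 to 2.04). Pgam1 (phosphoglycerate mutase) was the gene of the pathway that held in both genotypes among those named here, at 1.63 (1.11 to 2.33) in Rab37 KO and 2.52 (1.36 to 4.33) in WT without the set-apart cells. Ldha (lactate dehydrogenase A) had 460.4 CPM in Rab37 KO tumor and 904 CPM in WT tumor, against 279 CPM in Rab37 KO normal lung and 307 CPM in WT normal lung, and 61 of its 108 UMIs in WT tumor were in the deepest cell. In the other cells Ldha stood at 987 CPM in Rab37 KO tumor and 691 CPM in WT tumor, against 255 CPM in Rab37 KO normal lung and 265 CPM in WT normal lung. Per cell the median was 4 glycolysis UMIs per 1500 UMIs in every library.

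Proliferation and growth genes were called higher in 1 of 16 and lower in 3 in Rab37 KO tumor, and higher in 7 of 16 and lower in 1 in WT tumor. These were 25% of the list in Rab37 KO and 50% in WT, beside 8.16% of all genes in Rab37 KO and 9.62% in WT. In WT the deepest cell carried Mki67 (Ki-67) and Top2a (topoisomerase II alpha), and without the set-apart cells 2 genes of 15 were higher and 2 lower. Ncl (nucleolin), a ribosome assembly factor, was higher in WT tumor with all cells (ratio 2.34, interval 1.95 to 2.8) and without them (ratio 2.07, interval 1.61 to 2.63), and so was Npm1 (nucleophosmin), at 2.06 (1.76 to 2.41) with all cells and 1.71 (1.36 to 2.12) without them. With each cell thinned to 1500 UMIs the Npm1 log2 ratio in WT was -0.19. Slc3a2, the shared heavy chain of amino acid transporters, was lower in WT tumor, at 0.483 (0.30 to 0.74). Mki67 was lower in Rab37 KO tumor, with 2 UMIs there, at 0.194 (0.0229 to 0.735).

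Of 23 measured transcription factors, 0 were called higher and 1 (Rora) lower in Rab37 KO tumor, and 1 (Ikzf2) higher and 2 (Eomes and Klf6) lower in WT tumor. These shares, 4.35% in Rab37 KO and 13.0% in WT, lay near the 8.16% of all genes in Rab37 KO and 9.62% in WT. Eomes had 284 CPM in Rab37 KO tumor and 167 CPM in WT tumor, against 259.7 CPM in Rab37 KO normal lung and 292 CPM in WT normal lung, and its WT ratio of 0.572 (0.346 to 0.897) lost its call without the set-apart cells (ratio 0.934, interval 0.556 to 1.48). Tbx21 (T-bet) had 60.2 CPM in Rab37 KO tumor and 83.7 CPM in WT tumor, against 87.1 CPM in Rab37 KO normal lung and 112 CPM in WT normal lung, and was not called. In the list of 10 mature NK genes 1 (Itgam) was called higher and 2 (Ly6c2 and Irf8) lower in Rab37 KO tumor, and 0 higher and the same 2 lower in WT tumor, where 3.19% of all genes were lower in Rab37 KO and 3.22% in WT. Leaving out the set-apart cells, 0 were higher and 1 lower in Rab37 KO, and 2 higher and 1 lower in WT. Irf8, an interferon regulatory factor, had 972 CPM in Rab37 KO tumor and 1079.7 CPM in WT tumor, against 1760.0 CPM in Rab37 KO normal lung and 1640.0 CPM in WT normal lung, with 0.552 (0.48 to 0.634) in Rab37 KO and 0.658 (0.547 to 0.787) in WT; without the set-apart cells the WT ratio was 0.841 (0.677 to 1.03) and no longer called. Ly6c2, a surface antigen of mature lymphocytes, had 288 CPM in Rab37 KO tumor and 176 CPM in WT tumor, against 444 CPM in Rab37 KO normal lung and 548 CPM in WT normal lung, with 0.649 (0.496 to 0.837) in Rab37 KO and 0.321 (0.197 to 0.494) in WT, where only the WT call held without those cells. Of 11 immature NK genes, 3 were called higher and 0 lower in Rab37 KO tumor, and 3 higher and 2 lower in WT tumor. In the 660 remaining cells 3 were higher and 1 lower of 11 in Rab37 KO, and 0 higher and 1 lower of 10 in WT. Ltb (lymphotoxin beta) was among the higher ones in Rab37 KO, at 1.97 (1.19 to 3.15).

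Sorted by the 2 maturation lists after thinning to 1500 UMIs, cells with UMIs of both were 51.1% of NK cells in Rab37 KO tumor and 45.8% in WT tumor, against 55.1% in Rab37 KO normal lung and 52.5% in WT normal lung. Cells with mature-list UMIs alone were 14 of 47 (29.8%) in Rab37 KO tumor and 12 of 24 in WT tumor, against 98 of 267 (36.7%) in Rab37 KO normal lung and 135 of 335 (40.3%) in WT normal lung. Cells with immature-list UMIs alone were 9 of 47 (19.1%) in Rab37 KO tumor and 1 of 24 (4.17%) in WT tumor, against 20 of 267 (7.49%) in Rab37 KO normal lung and 23 of 335 (6.87%) in WT normal lung. These classes depend on depth. Without thinning, cells with immature-list UMIs alone were 0% of both tumor libraries, against 2.24% of Rab37 KO normal lung and 3.28% of WT normal lung, so no order is read from them.

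**Figure D5:**
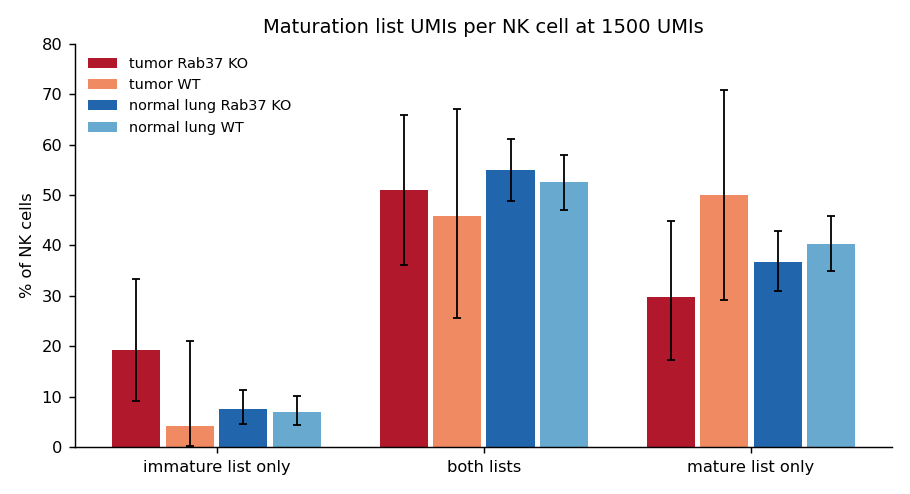
Share of NK cells in each library with UMIs of the immature list alone, of both lists and of the mature list alone, at 1500 UMIs per cell, with exact 95% binomial intervals. The tumor intervals are wide; in Rab37 KO tumor 19.1% of cells show the immature list alone.

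Across both genotypes 7559 genes were measured in NK cells of tumor and normal lung. Of these, 82 were called higher in both (20.3% of the Rab37 KO calls and 16.2% of the WT calls) and 45 lower in both (17.4% of the Rab37 KO calls and 17.7% of the WT calls), while 17 had opposite calls. Rsrp1, which encodes an arginine- and serine-rich protein, was among the genes higher in both, with 598 CPM in Rab37 KO tumor and 644 CPM in WT tumor, against 248 CPM in Rab37 KO normal lung and 232 CPM in WT normal lung, and gave 2.41 (1.96 to 2.96) in Rab37 KO and 2.77 (2.13 to 3.57) in WT. Spry2, an inhibitor of receptor tyrosine kinase signaling, was lower in both, at 0.428 (0.302 to 0.591) in Rab37 KO and 0.529 (0.336 to 0.797) in WT, though the WT call was lost without the set-apart cells. Hist1h1c, a linker histone, was called lower in Rab37 KO tumor and not in WT tumor, at 8.61 CPM (1.04 to 31.1) in Rab37 KO tumor against 169 CPM (147 to 193) in Rab37 KO normal lung. Rgs16, a brake on G protein signaling, was called higher in Rab37 KO tumor, at 116 CPM (76.6 to 169) in Rab37 KO tumor against 34.8 CPM (25.3 to 46.8) in Rab37 KO normal lung, with 14 of its 27 UMIs in 1 cell. Dgkz, a diacylglycerol kinase, gave 2.62 (1.59 to 4.22) in Rab37 KO and was not called in WT. Napsa, an aspartic protease of the lung epithelium, was ranked among the higher genes of Rab37 KO tumor, but 15 of its 27 UMIs lay in 1 cell and the call was lost without the set-apart cells (ratio 1.75, interval 0.808 to 3.5).

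The split of calls depended on scaling. With totals alone 403 genes were called higher and 258 lower in Rab37 KO tumor, and 506 higher and 254 lower in WT tumor, against normal lung. With TMM factors the numbers were 324 higher and 369 lower in Rab37 KO, and 302 higher and 494 lower in WT, and the median of all genes moved by -0.11 on the log2 scale in WT. DESeq2 size factors gave 370 higher and 409 lower in WT. With TMM factors the heat shock medians were -1.0 in Rab37 KO and -1.45 in WT.

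Rab37 KO and WT tumor NK cells were compared over 4585 measured genes, with 228 called higher in Rab37 KO (4.97%) and 291 lower (6.35%), 11.3% in all. This comparison rests on 47 cells of a library called male and 24 cells of a library called female, and without the set-apart cells 107 genes were called higher and 155 lower of 3822 (6.86%). With TMM factors 314 were higher and 194 lower and the median of all genes moved by 0.15, and DESeq2 size factors gave 290 higher and 205 lower with a median of 0.12. Only genes that held without the set-apart cells are given as called in what follows, unless stated.

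Ccl3 and Ccl4, which encode inflammatory chemokines, had higher summed levels in Rab37 KO than in WT tumor NK cells. Of 9 measured chemokines and cytokines, 3 were called higher (Ccl3, Ccl4 and Ifng) and 1 lower (Xcl1). These were 44.4% of the list, beside 11.3% of all genes. Without the largest Xcl1 cell of each library the log2 ratio of Xcl1 was 0.089. Ccl4 was at 1368 CPM (1222 to 1527) in Rab37 KO tumor against 293 CPM (204 to 407) in WT tumor, a ratio of 4.67 (3.29 to 6.83) with all cells and 3.09 (2.14 to 4.61) without the set-apart cells. Ccl3 was at 435 CPM (354 to 528) in Rab37 KO tumor against 126 CPM (70.3 to 207) in WT tumor, a ratio of 3.46 (2.0 to 6.41). Ifng was at 301 CPM (235 to 381) in Rab37 KO tumor against 159 CPM (95.7 to 248) in WT tumor, a ratio of 1.89 (1.13 to 3.33). The other cells of the tumors showed the same direction, with 2571 CPM of Ccl3 in Rab37 KO tumor and 584 CPM in WT tumor. The part of that RNA in the NK values was not tested. The Rab37 KO tumor sum of Ccl4 includes the single high cell named above. At an even depth Ccl3 was found in 9 of 47 NK cells of Rab37 KO tumor (9.15% to 33.3%). In WT tumor it was found in 3 of 24 (2.66% to 32.4%). Ccl4 was found in 42.6% of NK cells of Rab37 KO tumor (28.3% to 57.8%) and 20.8% of WT tumor (7.13% to 42.2%). The tumor intervals overlapped for both genes. In normal lung Ccl4 was found in 44.6% of NK cells of Rab37 KO and 54.3% of WT. In B cells Ccl4 was found in 2 of 64 cells of Rab37 KO tumor and 0 of 48 cells of WT tumor, against 12 of 616 cells of Rab37 KO normal lung and 14 of 680 cells of WT normal lung. Ccl3 was found in 3 of 64 B cells of Rab37 KO tumor and 0 of 48 of WT tumor.

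The cytotoxic list gave 3 higher and 1 lower of 15 in the Rab37 KO tumor, but 1 higher and 5 lower without the set-apart cells. With all cells 26.7% of the list was called, beside 11.3% of all genes. Without those cells 6.86% of all genes were called. Gzma was at 7508 CPM in Rab37 KO tumor against 9466 CPM in WT tumor, and Prf1 at 624 CPM in Rab37 KO tumor against 628 CPM in WT tumor, with a ratio of 0.793 (0.736 to 0.856) for Gzma and 0.994 (0.747 to 1.33) for Prf1. Without the set-apart cells Prf1 was called lower in Rab37 KO, at 0.652 (0.485 to 0.883), and Gzma at 0.663 (0.609 to 0.722). Whether these killing genes were called thus turned on the set-apart cells. Cst7 was called higher either way, at 4.46 (1.37 to 23) from 26 UMIs against 3.

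Of the immediate early genes, 9 of 26 were called higher in Rab37 KO tumor and 0 lower, but without the set-apart cells 2 were higher and 1 lower. With all cells 34.6% of the list was called, beside 11.3% of all genes. Klf6 remained, at 676 CPM (574 to 789.9) in Rab37 KO tumor against 251 CPM (169 to 358) in WT tumor. Of 13 measured inhibitory receptors 3 were higher and 0 lower (23.1%, beside 11.3% of all genes). Klra7 was at 323 CPM (254 to 405) in Rab37 KO tumor against 75.3 CPM (34.4 to 143) in WT tumor. Il2rb, the receptor chain shared by interleukins 2 and 15, was higher in Rab37 KO at 1114 CPM (983 to 1259) in Rab37 KO tumor against 669.6 CPM (531 to 833) in WT tumor, a ratio of 1.66 (1.29 to 2.17). Cd27, a TNF receptor family member of less mature NK cells, was at 90.4 CPM (55.9 to 138) in Rab37 KO tumor against 8.37 CPM (0.212 to 46.6) in WT tumor, from 21 UMIs against 1. Emb (embigin) and Ctla2a (a cathepsin inhibitor), also in the immature list, were higher at 1.62 (1.12 to 2.4) and 1.67 (1.22 to 2.3). Of the 10 mature genes 0 were called either way with all cells, and 0 higher and 3 lower without the set-apart cells.

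Nutrient uptake and growth genes gave 1 higher and 6 lower of 14, against 1 higher and 1 lower of 9 without the set-apart cells. With all cells 50% of the list was called, beside 11.3% of all genes. Ncl was the lower gene that held, at 624 CPM (526 to 734) in Rab37 KO tumor against 1264 CPM (1070.3 to 1482) in WT tumor, and Slc3a2 the higher one, at 417 CPM (338 to 509) in Rab37 KO tumor against 184 CPM (115 to 279) in WT tumor. Ap3b1, an AP-3 adaptor subunit that sorts cargo to lysosome-related granules, was ranked among the higher genes, at 120.5 CPM (80.1 to 174) in Rab37 KO tumor against 16.7 CPM (2.03 to 60.5) in WT tumor, from 28 UMIs against 2. Itgax (CD11c) was at 129 CPM (87.1 to 184) in Rab37 KO tumor against 8.37 CPM (0.212 to 46.6) in WT tumor, from 30 UMIs against 1, and held. Hist1h2ap (a histone gene) was ranked lower, but 85 of 88 UMIs in WT tumor lay in the deepest cell.

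Receptors of osteopontin, a secreted protein named in the study's title, were read because Rab37 is studied there for its secretion. Of 4 measured receptors in the tumor comparison 1 was called higher in Rab37 KO (25%, beside 11.3% of all genes). This was Cd44, at 164 CPM (116 to 224) in Rab37 KO tumor against 67 CPM (28.9 to 132) in WT tumor. Its tumor over normal ratio was 0.914 (0.63 to 1.29) in Rab37 KO and 0.481 (0.204 to 0.968) in WT, where the tumor library had 8 UMIs. When the set-apart cells were left out, 1 of 3 measured receptors was higher (Cd44) and 2 lower (Itga4 and Itgb1) in Rab37 KO tumor. Of all genes 6.86% were then called. Itga4 had 456 CPM in Rab37 KO tumor and 594 CPM in WT tumor, against 539 CPM in Rab37 KO normal lung and 547 CPM in WT normal lung, and was not called in any comparison with all cells, and Itgb1 had 396 CPM in Rab37 KO tumor and 569 CPM in WT tumor, against 457 CPM in Rab37 KO normal lung and 406 CPM in WT normal lung, and was likewise not called. In normal lung 1 of 6 receptors was called higher in Rab37 KO, Itgb3, and 0 lower (16.7%, beside 5.61% of all genes).

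In normal lung Rab37 KO and WT NK cells were compared over 8944 genes, with 306 called higher in Rab37 KO (3.42%) and 196 lower (2.19%), 5.61% in all, the most precise of the comparisons. The share called was 5.04% without the set-apart cells. Of 16 measured cytotoxic genes and 14 chemokines and cytokines, 0 were called either way. The log2 ratios ran from -0.37 to 0.29 over the cytotoxic list and from -1.13 to 0.82 over the chemokines and cytokines. Gzma was at 9838 CPM (9666 to 10013) in Rab37 KO normal lung against 11734 CPM (11548 to 11922) in WT normal lung, a ratio of 0.838 (0.819 to 0.859), and Prf1 at 942 CPM (889 to 997) in Rab37 KO normal lung against 975 CPM (922 to 1030.3) in WT normal lung, a ratio of 0.966 (0.892 to 1.05). Gzmb gave 0.808 (0.755 to 0.865), Ifng 0.802 (0.706 to 0.909), Ccl3 0.736 (0.658 to 0.822) and Ccl4 0.754 (0.706 to 0.806), so the ratios of these genes stood below 1 and inside 1.5-fold. Of the mature genes 0 of 10 were called, and of the cytokine receptors 0 of 22.

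Vesicle traffic genes were the list nearest to Rab37 in function, and 3 of 21 were called higher and 2 lower in Rab37 KO normal lung, Rab37 itself being 1 of the lower genes and Stx7 the other. With Rab37 counted these were 23.8% of the list, beside 5.61% of all genes. The call of Rab37 follows from the genotype, so this share is larger than that of the other members. Rab27b, a Rab GTPase of secretory granule docking, was at 64.9 CPM (51.6 to 80.6) in Rab37 KO normal lung against 31.6 CPM (22.6 to 42.8) in WT normal lung, a ratio of 2.06 (1.4 to 3.07). Lyst, the lysosomal trafficking regulator mutated in Chediak-Higashi syndrome, was at 52.3 CPM (40.4 to 66.5) in Rab37 KO normal lung against 29.2 CPM (20.7 to 40.1) in WT normal lung, a ratio of 1.79 (1.18 to 2.74). In tumor neither was called between the genotypes, and Rab27b had 4 UMIs in Rab37 KO tumor and 2 UMIs in WT tumor.

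Bcl2l11 (BIM), a BH3-only protein that promotes apoptosis, was higher in Rab37 KO normal lung, at 355 CPM (323 to 389) in Rab37 KO normal lung against 220.1 CPM (195 to 247) in WT normal lung, a ratio of 1.61 (1.39 to 1.88). It was also higher in Rab37 KO tumor with all cells, at 1.89 (1.17 to 3.19), but not called there without the set-apart cells (ratio 1.44, interval 0.841 to 2.61). Tnfrsf9 (4-1BB), a costimulatory receptor of activated NK cells, was lower, at 83.1 CPM (68 to 101) in Rab37 KO normal lung against 146 CPM (126 to 169) in WT normal lung, a ratio of 0.569 (0.444 to 0.725), and Traf1, an adaptor that binds it, gave 0.603 (0.453 to 0.797). Rora, a nuclear receptor, was higher at 1.74 (1.3 to 2.33), and Tcf4, a basic helix-loop-helix factor, at 2.26 (1.66 to 3.11). Nfkbid was higher at 1.64 (1.03 to 2.64), and Rgs16 lower at 0.467 (0.319 to 0.673). Klra1 (Ly49A), whose reads may be shared with its near copies, was lower at 0.567 (0.449 to 0.714), but its log2 ratio among the cells called male was 0.82. Hspb1 was the 1 heat shock gene of 15 called higher, at 43.5 CPM (32.8 to 56.7) in Rab37 KO normal lung against 3.08 CPM (0.839 to 7.88) in WT normal lung, with 20 of its 55 UMIs in Rab37 KO normal lung in 1 cell.

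Against Ccl5-expressing CD8 T cells, NK cells carried more of the killing genes and less Il7r (the interleukin 7 receptor). Those T cells held UMIs of Cd3e, Cd3d or Cd3g, of Cd8a or Cd8b1, and of Ccl5. They held no UMI of Ncr1, Klrb1c, Klre1, Klra8, Cd79a, Csf1r or Csf3r, so CD8 T cells with an NK gene UMI were left out. The comparison is a description, since these rules split the classes and shape the contrast. There were 22 such T cells in Rab37 KO tumor and 2 in WT tumor, against 254 in Rab37 KO normal lung and 207 in WT normal lung, so WT tumor was not used. The NK over CD8 T ratio of Prf1 was 10.9 in Rab37 KO tumor, 19.7 in Rab37 KO normal lung and 33.5 in WT normal lung. For Gzmb the ratio was 1.96 in Rab37 KO tumor, 10.6 in Rab37 KO normal lung and 56.2 in WT normal lung, and for Ccl4 it was 1.82 in Rab37 KO tumor, 12.9 in Rab37 KO normal lung and 6.61 in WT normal lung. Gzmb and Ccl4 thus set NK cells apart least in the tumor, where the 22 T cells give few UMIs. The Irf8 ratio was 25.5 in Rab37 KO tumor, 119 in Rab37 KO normal lung and 30.7 in WT normal lung, and the Il7r ratio was 0.113 in Rab37 KO tumor, 0.0997 in Rab37 KO normal lung and 0.0806 in WT normal lung. Hspa1b differed little between the cell classes, at 1.36 in Rab37 KO tumor, 1.32 in Rab37 KO normal lung and 1.59 in WT normal lung.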

How the data were processed

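Single-cell 3′ libraries had been made from sorted live CD45+ cells with the v2 kit, per the labels' protocols. The authors deposited raw UMI counts for each of 31053 features in each barcode, on mm10, and name software versions 3.0.1 (normal lung) and 3.1.0 (tumor), per the file headers. Depth per library is given in the report. No source used here names the aligner. The NK rule, the members and the 20 gene lists (360 genes, 1 not in the table) were chosen with earlier results of these data known. UMIs were summed over NK cells per library and given as CPM. Exact intervals were Poisson (levels), Clopper-Pearson (shares) and, for ratios, binomial given the summed count. A floor of 3 counts stands for a count of 0.

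Named genes were Rab37, up to 8 ranked genes each way per comparison (at least 100 CPM and 20 UMIs, found in 10% of NK cells of the higher library), up to 4 members of a list with at least 50 CPM plus members a sentence needs, and up to 25 genes that lead in NK cells. Mitochondrial, ribosomal, hemoglobin, receptor, sex-linked and predicted genes were not ranked, nor were genes with a higher level in other cells. Sex was called per cell from UMIs of Xist or Y-linked genes. Scrublet called 4 doublets in Rab37 KO tumor and 3 in WT tumor, against 80 in Rab37 KO normal lung and 179 in WT normal lung, of which 1 was an NK cell; they were kept and left out as an alternative. In the tumor libraries it marked few cells. B cells for background had 2 or more Cd79a UMIs and none of the NK, Cd3 or myeloid genes of the rule. Thinning drew 1500 UMIs per cell with seed 1, and 1 NK cell was shallower. Scripts were tested on simulated data. The result of 1 gene is not reported here. Python 3.11.15, numpy 2.4.6, pandas 2.3.3, scipy 1.17.1, scanpy 1.11.5 and matplotlib 3.10.9 were used, with R 4.3.3, edgeR 4.0.16 (TMM factors) and DESeq2 1.42.0 (size factors) for the scaling alternatives alone.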

Additional observations from a re-analysis of the deposited data

Results flagged for a closer look

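Some genes went opposite ways in the 2 genotypes or the 2 tissues, each past 1.5-fold with an interval that left out 1 on both sides. The difference between the contrasts was not tested, since each group is 1 library. Mki67, tumor over normal lung, had a log2 ratio of -2.37 in Rab37 KO and 1.47 in WT, and Top2a had -1.77 in Rab37 KO and 1.02 in WT. The deepest WT tumor NK cell held 27 of the 29 UMIs of both genes there. Xcl1, tumor over normal lung, had -1.19 in Rab37 KO and 0.87 in WT, where 2 cells held 171 of 180 UMIs. Rgs16, Rab37 KO over WT, had 2.21 in tumor and -1.10 in normal lung, with 14 of 27 UMIs of Rab37 KO tumor in 1 cell and 3 UMIs in WT tumor.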

How the results depend on the processing

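No paired analysis was possible because each group is 1 library and the shared number 1 pairs nothing. Of 2338 values of 131 called gene ratios under alternatives, 2132 moved less than counting error, 182 moved more and 24 changed sign. An alternative that changes only the limit of a call, such as the 2-fold limit, leaves each ratio as it was. Any such value falls among the 2132 by construction, so that number overstates how stable the ratios were. The 131 ratios are of called genes alone and do not describe genes in general. The limits are 24 WT tumor NK cells, 1 of which holds 24.8% of their UMIs, and 1 library per group. The cause of each move was not tested unless the cells left out show it.

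Counts of genes called higher and lower moved by over 1.5 times as follows, tumor against normal lung unless stated. TMM factors gave 302 higher and 494 lower in WT, and DESeq2 size factors 409 lower in WT. A 2-fold limit gave 165 lower in Rab37 KO, 164 lower in WT, and, for Rab37 KO against WT in normal lung, 176 higher and 114 lower. Without cells holding type 1 innate lymphoid cell genes, 317 were higher and 121 lower in WT, and 90 higher and 162 lower for Rab37 KO against WT in tumor. Male-called cells gave 182 higher for Rab37 KO against WT in normal lung. Without the mixed and deepest cells, a choice made after seeing the data, 333 were higher and 130 lower in WT, and 107 higher and 155 lower between the tumors. Thinning each cell to 1500 UMIs, also added after seeing the data, gave 194 higher and 102 lower in Rab37 KO, 190 and 96 in WT, 55 and 65 between the tumors and 180 higher between the normal libraries. The mean of per-cell CPM, which has no interval, put 1525 above and 1941 below 1.5-fold in Rab37 KO, 2154 and 2432 in WT, 1087 and 1065 between the tumors, and 1076 and 916 between the normal libraries.

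Log2 ratios that changed sign, tumor over normal lung in WT unless stated, were these. Without type 1 innate lymphoid cell genes Hist1h2ap gave -1.82, Mki67 -0.066, Prf1 0.053 and Top2a -2.05 (0.38 for Rab37 KO over WT in tumor). Without the deepest cell Hist1h2ap gave -1.15, Mki67 -0.0054 and Top2a -1.16. Without the mixed and deepest cells Hist1h2ap gave -1.34, Prf1 0.045, Top2a -0.78 and Tpi1 -0.050. Thinned cells gave Eomes 0.49, Npm1 -0.19 and Tpi1 -0.78, with Ldha -0.065 in Rab37 KO and Eomes -0.42 between the tumors. Means per cell gave Eomes 0.020 and Xcl1 -0.069. Without the largest cell of the gene Hist1h2ap gave -1.14, Top2a -0.97 and Xcl1 -1.95, with Xcl1 at 0.089 between the tumors. Male-called cells gave Klra1 0.82 for Rab37 KO over WT in normal lung.

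The NK share was 8.02% in Rab37 KO normal lung and 7.65% in WT normal lung at 5% mitochondrial UMIs, and 4.88% in Rab37 KO normal lung after thinning. Maturation classes moved with depth. Without thinning, cells of the mature list alone were 17.0% in Rab37 KO tumor, against 25% in Rab37 KO and 26.6% in WT normal lung. Cells of the immature list alone were then 0% in both tumors, against 2.24% and 3.28%, and cells of both lists 83.0% in Rab37 KO tumor, against 72.8% and 70.1%, with 0% of neither in both normal libraries. Thinned to 1000 UMIs, both lists were at 44.6% in Rab37 KO and 40.3% in WT normal lung, with 47.5% mature alone and 2.69% neither in WT. At 3 marker UMIs the immature list alone was 0% in WT tumor.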

Other observations

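Of the interferon response genes, 1 of 21 was called higher and 1 lower in Rab37 KO tumor, and 1 of 23 higher and 0 lower in WT tumor, against normal lung; between the tumors 1 of 13 was higher and 2 lower in Rab37 KO, and between the normal libraries 1 of 25 higher and 1 lower. Ifitm3, an antiviral membrane protein, was the higher gene in both tumor libraries, from 12 UMIs in Rab37 KO tumor, 5 of them in 1 cell, and 4 UMIs in WT tumor, all in 1 cell. MHC class I and processing genes gave 0 of 17 either way in Rab37 KO tumor, and 0 higher and 2 lower (H2-Q7 and H2-T23) in WT tumor. Between the genotypes they gave 1 higher and 1 lower of 17 in tumor and 0 of 17 either way in normal lung. TGF-beta response genes gave 2 higher and 1 lower of 14 in Rab37 KO tumor and 0 of 11 either way in WT tumor. The tissue residency list gave 2 higher and 1 lower of 14 in Rab37 KO tumor, and 3 higher and 2 lower of 13 in WT tumor. Cytokine receptors gave 1 higher and 1 lower of 21 in Rab37 KO tumor, and 0 higher and 1 lower of 21 in WT tumor. Survival and death genes gave 1 higher and 0 lower of 18 in Rab37 KO tumor, with Bcl2 the higher one, and 2 higher and 2 lower of 19 in WT tumor. Called either way were 21.4% of the TGF-beta response list and 21.4% of the tissue residency list in Rab37 KO tumor, beside 8.16% of all genes, and 38.5% of the tissue residency list and 21.1% of the survival and death list in WT tumor, beside 9.62%. The vesicle traffic list stood at 20% in Rab37 KO tumor (Ap3b1 higher, Rab27b, Vamp7 and Vamp8 lower) and 9.52% in WT tumor. In tumor against normal lung, the other lists of this section lay near or below the shares of all genes. The interferon list stood at 9.52% in Rab37 KO tumor and 4.35% in WT tumor. Cytokine receptors stood at 9.52% and 4.76%, and MHC class I at 0% and 11.8%. Between the tumors the interferon list stood at 23.1% and MHC class I at 11.8%, beside 11.3% of all genes. Between the normal libraries they stood at 8% and 0%, beside 5.61%. The survival and death list stood at 21.4% between the tumors and 21.1% between the normal libraries. For the TGF-beta response list these shares were 10% and 21.4%, and for the heat shock list 23.1% and 6.67%.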
